A study of Homo sapiens with 2 samples.

Results

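Cholesterol and fatty acid synthesis genes were compared between a dye-excluding and a dye-retaining fraction of J82, an established human bladder cancer cell line. The listed genes number 40: 17 enzymes of sterol synthesis, 17 enzymes of fatty acid synthesis and activation, and 6 regulators and sterol carriers. They were chosen by gene name, with earlier results of these data known. A gene counted as measured where a probe set of the array carried its symbol alone. This held for 32 of the 40, out of 14232 genes measured in all, and each of the 32 rested on 1 probe set. ACAT2, FDFT1, CYP51A1, HSD17B7, SREBF2, ELOVL5, ELOVL7 and ACSL3 had no such probe set, so no value is given for them.

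The side population (SP) is the fraction of cells that stains weakly with the DNA dye Hoechst in flow cytometry, and the remaining cells are the non-side population (NSP). Both were sorted from J82 cells grown in the same medium with fetal bovine serum, and no treatment is recorded for either. Total RNA of each population was hybridised to a human exon array, 1 per population. Neither population was replicated, so differences come without error bars or p-values, and what is said of them holds for these 2 arrays. The labels give neither the sort gates nor the number of cells sorted.

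Cells make cholesterol from acetyl-CoA through mevalonate, farnesyl diphosphate and squalene, and they make fatty acids from the same acetyl-CoA through malonyl-CoA. SREBP transcription factors switch on both branches. SCAP carries them out of the endoplasmic reticulum when sterols are scarce, and the INSIG proteins hold SCAP back when sterols are plentiful. Serum in the medium supplies lipoprotein cholesterol and fatty acids, which cultured cells can take up in place of making their own.

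Signals are log2 values, the difference is SP minus NSP, and a fold is that difference taken off the log2 scale. The median of all values, 7.44, is used as a floor for low signal, and 7549 of the 14232 genes reached it on at least 1 array. Among these the median difference was -0.05, and 59.6% were lower in SP by any amount. The general level of signal was close on both arrays, with a median over all probe sets of 7.43 in SP and 7.44 in NSP. Of the markers used to check the cells, KRT8 had 13.18 in SP against 12.77 in NSP and KRT18 had 10.57 in SP against 10.32 in NSP. The mesenchymal markers VIM, CDH2, FN1 and ZEB1 all reached the floor in both populations. Of the 14 measured urothelial and epithelial markers 6 reached the floor: KRT8, KRT18, KRT7 (7.55 in SP, 7.53 in NSP), KRT19 (7.73, 7.58), FOXA1 (8.01, 8.07) and PPARG (9.20, 8.50). CDH1, EPCAM, KRT20, GATA3 and the measured uroplakins (UPK1A, UPK1B, UPK2 and UPK3A) lay under it in both populations. Adipocyte markers, which could bring lipid synthesis transcripts from other cells, reached the floor in 0 of 3 measured cases, and hepatocyte markers in 1 of 5. Immune markers reached it in 1 of 4 measured cases (CD14), and erythroid markers in 0 of 2.

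No lipid synthesis gene differed by 1.5-fold in either direction. Across the 7549 floor genes, 3.1% were higher in SP by that margin and 1.43% lower. The members were therefore also counted at 1.2-fold, a difference of 0.26 on the log2 scale. At that margin 2 of the 31 members that reached the floor were higher in SP, where 11.3% of floor genes were, and 8 were lower in SP, where 16.5% of floor genes were. The 8 lower members were 6 sterol enzymes (MVK, MVD, LSS, EBP, SC5D and DHCR7) and 2 fatty acid genes (ACLY and ACACB), and the 2 higher were FADS2 and ACSL1. Each array holds RNA of many cells, so a difference shared by all cells and one carried by a few cannot be told apart. By any amount, 22 of the 32 measured members were lower in SP and 10 higher, and the members' median difference was -0.10. All but 1 of the members reached the floor, and 59.6% of floor genes were lower (65.2% in the third of them with the highest signal, 49.5% of all 14232 genes), so the members' share of 68.8% lies near that of genes of like signal.

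**Figure D1:**
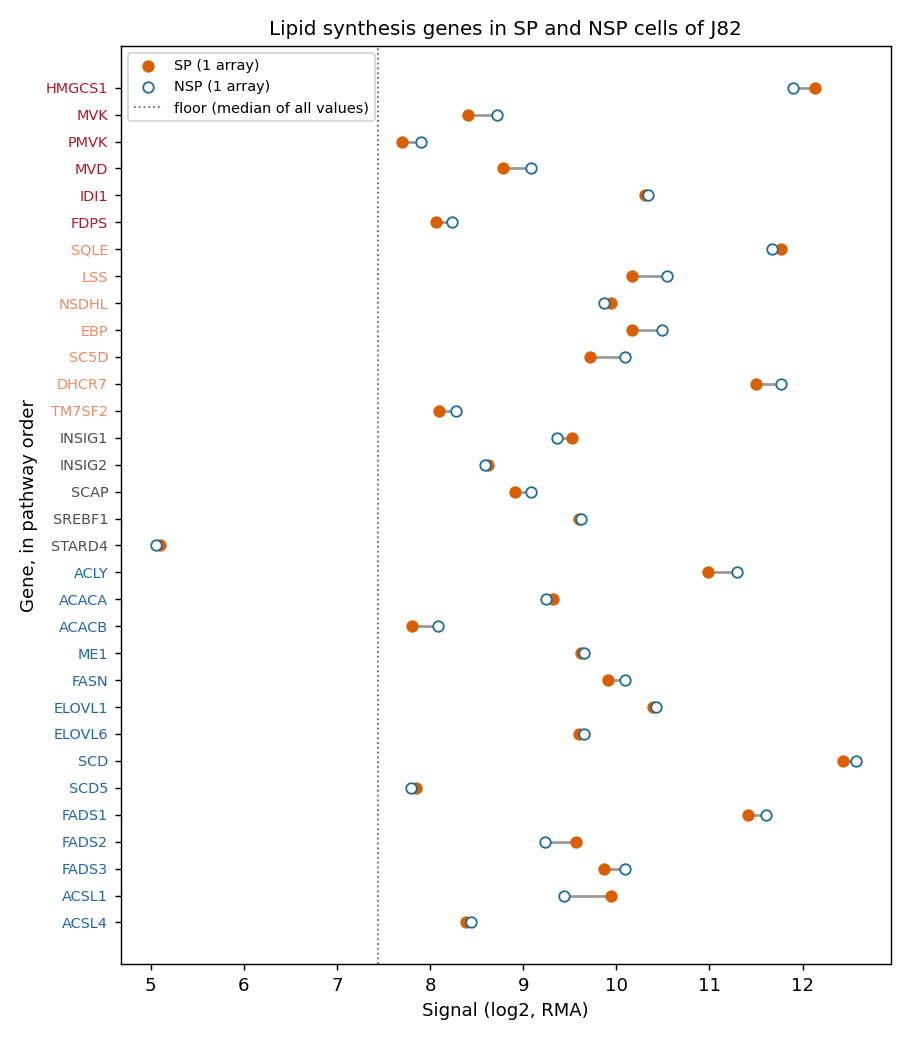
Signal (log2, horizontal axis) of each measured member in SP (filled points, 1 array) and NSP (open points, 1 array), in pathway order from top to bottom, with gene names coloured by branch and the floor as a dotted line. The points of a gene lie close together throughout, and STARD4 is the member under the floor.

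The sterol branch held 6 of the 8 members lower by at least 1.2-fold. By any amount it held 10 lower genes, as did the fatty acid branch. Of its 13 measured enzymes the other 3 were higher in SP. The median difference was -0.21, with an SD across genes of 0.197 and a range from -0.37 to 0.24. All 13 reached the floor, and 6 of them were lower by at least 1.2-fold, against 16.5% of all genes at that margin. In the third of floor genes with the highest mean signal, where 8 of the 13 lay, 16.2% were lower by at least 1.2-fold and 65.2% lower by any amount. The difference also follows signal level across the array, with a smoothed trend of -0.09 at a mean signal of 10. With that trend removed, 2 of the 13 (LSS and SC5D) were lower by 1.2-fold and 1 (HMGCS1) higher, against 10.8% and 14.4% of all genes, and the median was -0.18.

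Promoter sequence is shown here because it is a property of the genes that their selection by name did not use. RefSeq promoter windows of GRCh38.p14, which run from 250 bases before to 50 after a listed start, were found for 36 of the 40 members. ACAT2, FDFT1, SQLE and FASN had no window. Each window was searched on both strands for the letters CCAAT, the core bound by the factor NF-Y, which works beside SREBPs at sterol-regulated promoters. CCAAT stood in 10 of the 12 sterol enzymes with a value and a window (83.3%), in 5 of 13 fatty acid enzymes (38.5%) and in 2 of 5 regulators and carriers (40%). Of all 27305 gene windows 35.7% held it, and of those of genes at or above the floor 37.2%. All 6 sterol enzymes lower by 1.2-fold held it, as did HMGCS1 and NSDHL, which were higher in SP. Among the enzymes with a window the letters thus did not separate the directions. SQLE, also higher in SP, could not be searched. PMVK and IDI1 had no match in the window used. These counts use the first listed start of each gene, and 10 members have several. With any listed start the shares were 91.7% of sterol enzymes, 69.2% of fatty acid enzymes, 39.7% of all genes and 43.8% of genes at or above the floor. The classical sterol regulatory element, searched as a fixed run of 10 bases, was found in 0.0476% of all windows and, among the members, in that of SREBF2 alone, which has no value here. The looser TCACNCCAC, which overlaps it, was found in 1.15% of windows and again in that of SREBF2 alone. The letters GGGCGG and CACGTG were searched as well. GGGCGG stood in 91.7% of the sterol enzymes, 84.6% of the fatty acid enzymes and 72.8% of genes at or above the floor. CACGTG stood in 16.7%, 0% and 11% of them, in the same order.

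The 250 bases before the start of 6 members are given 5′ to 3′ on the gene's strand, with CCAAT or its reverse complement ATTGG in capitals. HMGCS1 is the sterol enzyme with the highest difference, MVK holds 5 matches, LSS, EBP and SC5D are the 3 sterol enzymes with the lowest differences, and ACSL1, the member with the highest difference, has no match. They lie at chr5:43313413-43313662 (minus strand) for HMGCS1, chr12:109573544-109573793 (plus) for MVK, chr21:46228775-46229024 (minus) for LSS, chrX:48521558-48521807 (plus) for EBP, chr11:121292521-121292770 (plus) for SC5D and chr4:184825969-184826218 (minus) for ACSL1.
HMGCS1: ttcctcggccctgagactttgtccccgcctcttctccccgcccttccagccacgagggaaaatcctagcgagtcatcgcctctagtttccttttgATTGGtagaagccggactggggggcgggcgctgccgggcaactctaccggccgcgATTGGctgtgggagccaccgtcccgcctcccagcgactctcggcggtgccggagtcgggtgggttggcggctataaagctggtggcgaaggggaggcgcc
MVK: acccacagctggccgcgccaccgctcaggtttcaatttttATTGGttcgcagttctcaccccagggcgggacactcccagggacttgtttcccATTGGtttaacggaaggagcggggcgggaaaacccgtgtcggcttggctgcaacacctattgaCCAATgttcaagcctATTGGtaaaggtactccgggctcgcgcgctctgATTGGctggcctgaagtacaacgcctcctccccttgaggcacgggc
LSS: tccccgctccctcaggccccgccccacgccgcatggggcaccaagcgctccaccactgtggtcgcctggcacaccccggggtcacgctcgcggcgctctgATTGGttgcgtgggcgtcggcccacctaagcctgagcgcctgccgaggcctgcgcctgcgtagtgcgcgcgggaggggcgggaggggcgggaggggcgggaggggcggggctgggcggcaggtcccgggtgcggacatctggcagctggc
EBP: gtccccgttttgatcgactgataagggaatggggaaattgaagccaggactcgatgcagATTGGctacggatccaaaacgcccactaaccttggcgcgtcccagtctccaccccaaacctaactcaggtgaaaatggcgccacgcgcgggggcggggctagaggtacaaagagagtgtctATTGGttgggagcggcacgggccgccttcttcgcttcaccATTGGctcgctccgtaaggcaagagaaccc
SC5D: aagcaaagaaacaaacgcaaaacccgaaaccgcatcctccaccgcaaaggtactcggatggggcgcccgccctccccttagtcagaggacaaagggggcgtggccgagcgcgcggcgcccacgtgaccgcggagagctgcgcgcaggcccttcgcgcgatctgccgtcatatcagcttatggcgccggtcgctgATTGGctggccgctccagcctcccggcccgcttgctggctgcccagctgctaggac
ACSL1: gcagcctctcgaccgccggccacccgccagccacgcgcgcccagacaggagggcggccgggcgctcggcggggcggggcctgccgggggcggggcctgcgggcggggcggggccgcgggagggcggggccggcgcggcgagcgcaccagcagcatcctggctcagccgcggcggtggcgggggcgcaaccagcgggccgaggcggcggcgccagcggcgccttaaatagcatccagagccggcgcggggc

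Within the mevalonate steps, HMGCS1 was higher in SP and the other 5 measured enzymes were lower, IDI1 by so little that its sign turned under quantile normalisation (0.0053) and with the trend removed (0.05). HMGCS1, which condenses acetyl-CoA with acetoacetyl-CoA to HMG-CoA, had 12.13 in SP against 11.90 in NSP, a difference of 0.24 or 1.18-fold higher. Its difference exceeded that of 87.3% of the genes at or above the floor. MVK, which phosphorylates mevalonate, had 8.40 in SP against 8.72 in NSP and was 1.24-fold lower. PMVK, which adds the next phosphate, had 7.70 in SP against 7.91 in NSP (1.16-fold lower). MVD, the decarboxylase that forms isopentenyl diphosphate, had 8.79 in SP against 9.08 in NSP (1.23-fold lower). These 3 successive enzymes were thus all lower in SP. IDI1, the isomerase that follows, had 10.31 in SP against 10.34 in NSP, a difference of -0.03. FDPS, which joins the units into farnesyl diphosphate, had 8.07 in SP against 8.23 in NSP (1.12-fold lower). FDPS has processed pseudogenes that can share probes, which makes its value less certain. HMGCS1 and MVK were 0.55 apart in their differences. MVD lost the 1.2-fold margin under quantile normalisation (-0.256) and removal of the trend on signal level (-0.22). MVK lost it under removal of the trend (-0.25).

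The steps from squalene to cholesterol held the lowest differences of the list. SQLE, which oxidises squalene and is a rate-limiting step of the branch, had 11.77 in SP against 11.67 in NSP (1.07-fold higher). LSS, which folds the product into lanosterol, had 10.17 in SP against 10.54 in NSP (1.29-fold lower). The adjoining steps SQLE and LSS were thus 0.47 apart in their differences. NSDHL, which takes part in removing methyl groups from the ring, had 9.94 in SP against 9.87 in NSP (1.05-fold higher). EBP, the isomerase that moves the ring's double bond, had 10.17 in SP against 10.49 in NSP, a difference of -0.33. SC5D, the desaturase after it, had 9.72 in SP against 10.09 in NSP (1.29-fold lower). DHCR7, which makes cholesterol from its dehydro precursor, had 11.49 in SP against 11.76 in NSP, a difference of -0.27. EBP, SC5D and DHCR7 follow one another in the pathway, and all 3 were lower by at least 1.2-fold (0.263 on the log2 scale) in the deposited values. DHCR7 stood just past that margin and lost it under centring on the median (-0.257), quantile normalisation (-0.256) and removal of the trend on signal level (-0.19), and EBP lost it under removal of the trend (-0.24). TM7SF2, a sterol reductase that acts earlier, had 8.10 in SP against 8.28 in NSP (1.14-fold lower). Over the 7 measured genes of these steps the median difference was -0.27, against -0.19 over the 6 measured genes of the mevalonate steps.

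**Figure D2:**
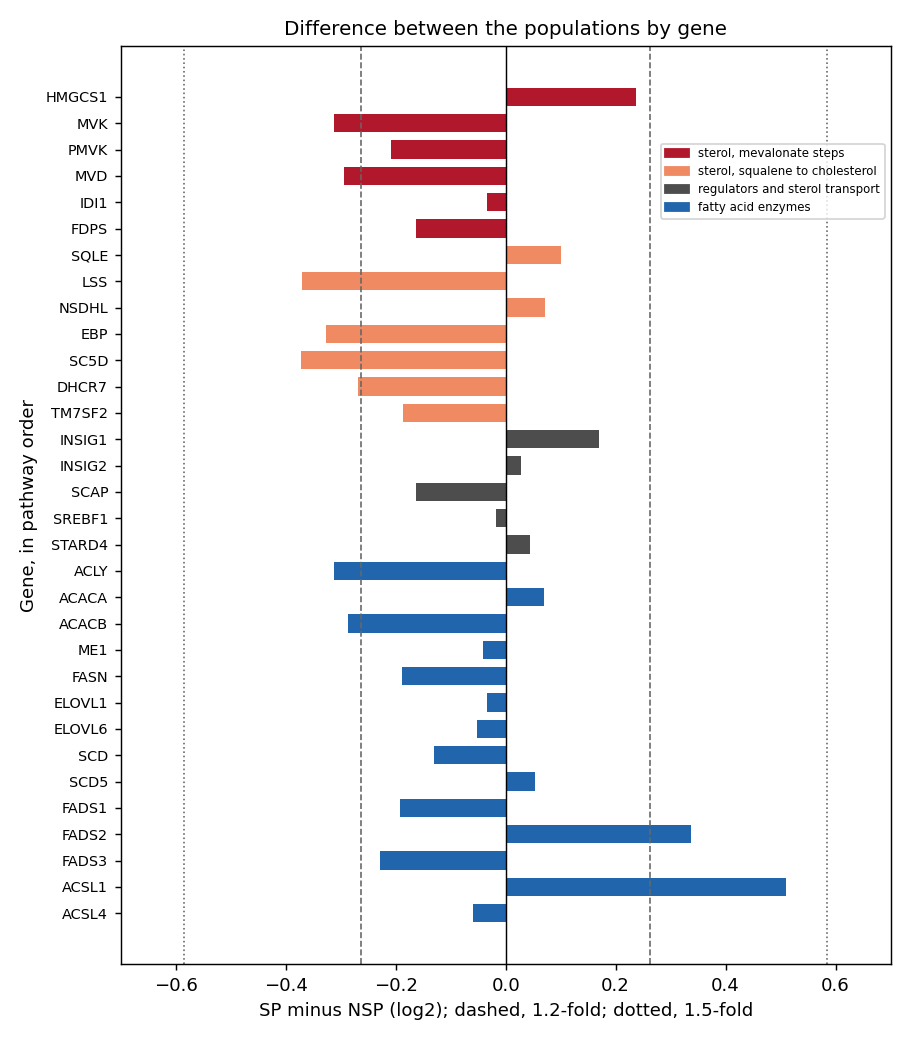
Difference SP minus NSP (log2, horizontal axis) for each measured member in pathway order, coloured by branch, with dashed lines at 1.2-fold and dotted lines at 1.5-fold. No bar reaches a dotted line. ACSL1 has the longest bar to the right (0.51), and SC5D (-0.37) and LSS (-0.37) the longest to the left.

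The regulators and the sterol carrier lay close to 0. Over the 5 measured the median difference was 0.03, with 3 higher and 2 lower. Of the 4 that reached the floor 0 differed by 1.2-fold, a margin that 11.3% of floor genes passed upward and 16.5% downward, so a count of 0 among 4 genes says little. INSIG1, the retention protein whose own gene is an SREBP target, had 9.53 in SP against 9.36 in NSP (1.12-fold higher). Its relative INSIG2 had 8.62 in SP against 8.59 in NSP, a difference of 0.03. SCAP, the escort of SREBPs, had 8.91 in SP against 9.08 in NSP (1.12-fold lower). SREBF1, which encodes the SREBP-1 proteins, had 9.60 in SP against 9.62 in NSP, a difference of -0.02. STARD4, a soluble carrier of sterols, had 5.10 in SP against 5.05 in NSP, both under the floor, so its difference of 0.04 is one of dim signal. HMGCS1, SQLE and INSIG1 had the 3 highest differences among sterol enzymes and regulators (0.24, 0.10 and 0.17). They are known SREBP targets, as are LSS (-0.37), MVD (-0.29), DHCR7 (-0.27), FDPS (-0.16) and IDI1 (-0.03), so targets lay on both sides.

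The fatty acid branch was spread to both sides, with its middle close to that of all genes. Of 14 measured enzymes 10 were lower and 4 higher in SP. Their median difference of -0.06 compares with -0.05 over all genes at or above the floor. The SD across genes was 0.230 and the range ran from -0.31 to 0.51. At 1.2-fold 2 were higher and 2 lower, of 14 at or above the floor, near the 11.3% and 16.5% of all floor genes. The lower count was 0 with the trend on signal level removed, and the higher count was 1 with probe sets of several symbols counted too.

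Of the 4 measured genes of precursor supply, ACLY and ACACB were lower by at least 1.2-fold. ACLY, which makes cytosolic acetyl-CoA from citrate for both branches, had 10.98 in SP against 11.29 in NSP (1.24-fold lower). The acetyl-CoA carboxylases, which make malonyl-CoA, did not move together. ACACA, the cytosolic form that feeds synthesis, had 9.32 in SP against 9.25 in NSP (1.05-fold higher). ACACB, the form at the mitochondrial membrane whose product restrains fatty acid oxidation, had 7.80 in SP against 8.09 in NSP (1.22-fold lower). The pair were 0.36 apart in their differences. FASN, which builds palmitate, had 9.91 in SP against 10.10 in NSP (1.14-fold lower). ME1, a cytosolic source of NADPH, had 9.62 in SP against 9.66 in NSP, a difference of -0.04.

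The measured elongases differed little, and the desaturases lay on both sides. ELOVL1, which extends very long chains, had 10.39 in SP against 10.43 in NSP (-0.03), and ELOVL6, which extends palmitate to stearate, had 9.59 in SP against 9.65 in NSP (-0.05). SCD, the main enzyme that makes oleate, had 12.44 in SP against 12.57 in NSP (1.10-fold lower). Its relative SCD5 had 7.85 in SP against 7.80 in NSP (1.04-fold higher). FADS2, the delta-6 desaturase that begins the making of polyunsaturated chains, had 9.57 in SP against 9.23 in NSP (1.26-fold higher). A further probe set listed FADS2 together with FEN1, and with it counted too the difference of FADS2 was 0.06, under the 1.2-fold margin. FADS1, the delta-5 desaturase later in the same route, had 11.41 in SP against 11.60 in NSP (1.14-fold lower), and its difference was -0.34 with a probe set shared with NCAPD2 and SCARNA10 counted too. FADS3 had 9.87 in SP against 10.10 in NSP (1.17-fold lower). The 3 FADS genes lie side by side on chromosome 11, and FADS2 was 0.53 from FADS1 and 0.57 from FADS3 in its difference.

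ACSL1 had the largest difference of all measured members. This acyl-CoA synthetase, which activates long-chain fatty acids for use in oxidation or in glycerolipids and is a known target of PPAR nuclear receptors, had 9.94 in SP against 9.43 in NSP. It was 1.42-fold higher, and its difference of 0.51 exceeded that of 95.9% of genes at or above the floor. ACSL4, which prefers arachidonate, had 8.39 in SP against 8.44 in NSP, a difference of -0.06. The 2 synthetases were 0.57 apart. The nuclear receptor gene PPARG, itself a luminal urothelial and adipocyte regulator, had 9.20 in SP against 8.50 in NSP. Of the other PPAR genes, PPARD had 8.28 in SP against 8.30 in NSP, and PPARA was not measured. Other known PPAR targets above the floor did not share the rise of ACSL1. PLIN2 (0.03) and CPT1A (0.06) were close to 0, and HADHA (-0.07), ACADM (-0.20) and ACADVL (-0.31) were lower in SP. The part of these receptors in the ACSL1 value was not tested. The adipocyte markers measured beside PPARG ranged from 5.83 to 7.33 in SP and from 5.79 to 7.17 in NSP, all under the floor.

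**Figure D3:**
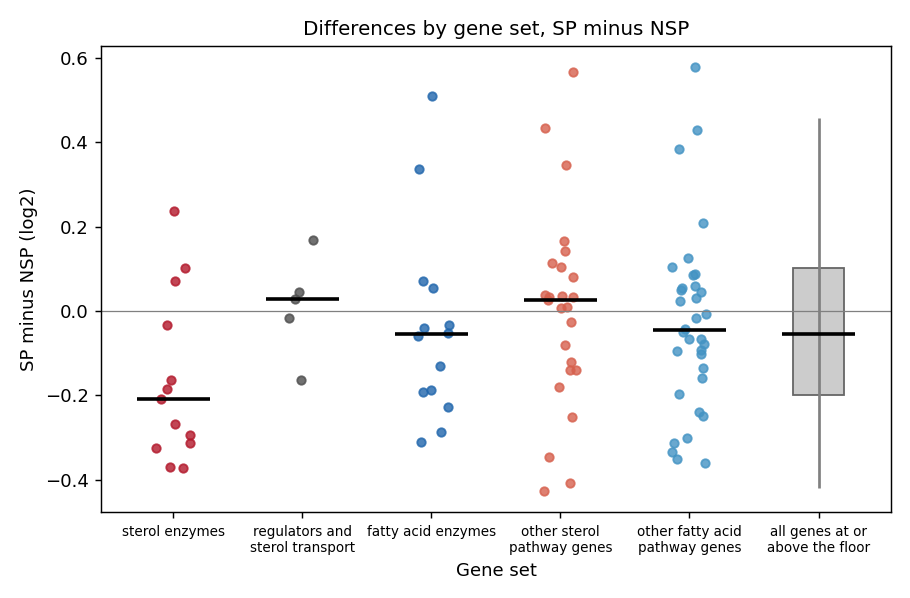
Difference SP minus NSP (log2, vertical axis) for each measured gene of the 3 member groups and of the other pathway genes, with medians as black bars, beside all 7549 genes at or above the floor (box, 25th to 75th percentile; line, 5th to 95th percentile). The other pathway genes include some under the floor. The sterol enzymes have the lowest median (-0.21), while the fatty acid enzymes (-0.06) lie near all genes (-0.05).

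Other genes of sterol handling were not shifted as the enzymes were. Of 35 listed, 25 were measured, 15 higher in SP and 10 lower, and their median difference was 0.03. Among the 17 that reached the floor, 3 were higher by 1.2-fold and 1 lower, against 11.3% and 16.5% of all genes. ABCA1, the cholesterol export pump, had 8.86 in SP against 8.29 in NSP (1.48-fold higher). MYLIP, a ubiquitin ligase that degrades lipoprotein receptors, had 9.84 in SP against 9.50 in NSP (1.27-fold higher). Both genes are known targets of the LXR sterol sensors, whose part in these values was not tested. The members SREBF1 (-0.02), SCD (-0.13) and FASN (-0.19) are known LXR targets too, and none of them was higher in SP. Of the sensor genes, NR1H3 had 7.13 in SP against 7.12 in NSP, under the floor, and NR1H2 was not measured. ABCG1, a further LXR target, had 6.76 in SP against 6.65 in NSP, also under the floor. PGGT1B, a subunit of a protein prenyltransferase, had 8.21 in SP against 7.77 in NSP (1.35-fold higher), while FNTB, the farnesyltransferase beta subunit, was 1.13-fold lower. ERLIN1, which takes part in sterol-dependent protein degradation in the endoplasmic reticulum, had 8.10 in SP against 8.44 in NSP (1.27-fold lower). STARD3, a late endosomal sterol carrier, was 1.19-fold lower, and SOAT1, which esterifies cholesterol for storage, was 1.12-fold higher. MSMO1, a sterol synthesis enzyme that was not among the members, had 11.94 in SP against 11.80 in NSP (1.10-fold higher). MBTPS1, the first protease that cuts SREBPs, had 9.87 in SP against 10.01 in NSP (1.10-fold lower).

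Other genes of fatty acid supply, storage and oxidation gave a median difference of -0.05 over 34 measured of 46 listed, with 14 higher and 20 lower in SP. At 1.2-fold 1 was higher and 4 lower of the 26 at or above the floor, near the 11.3% and 16.5% of all floor genes. ACSL5, a further acyl-CoA synthetase, had 7.61 in SP against 7.22 in NSP, a difference of 0.38, with its NSP value under the floor. PLIN3, a lipid droplet coat protein, had 8.96 in SP against 9.32 in NSP (1.28-fold lower). The glycerolipid synthesis genes DGAT2 (7.89 in SP against 8.23 in NSP) and AGPAT2 (8.84 in SP against 9.14 in NSP) were 1.26-fold and 1.23-fold lower. ACADVL, which starts the oxidation of very long chains in mitochondria, had 10.34 in SP against 10.66 in NSP (1.24-fold lower). ACSS2, which makes acetyl-CoA from acetate, was 1.19-fold lower, the carnitine carrier gene SLC25A20 1.18-fold and the medium-chain dehydrogenase gene ACADM 1.15-fold lower. SLC25A1, which exports the citrate used by ACLY, had 10.38 in SP against 10.51 in NSP (1.10-fold lower).

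**Figure D4:**
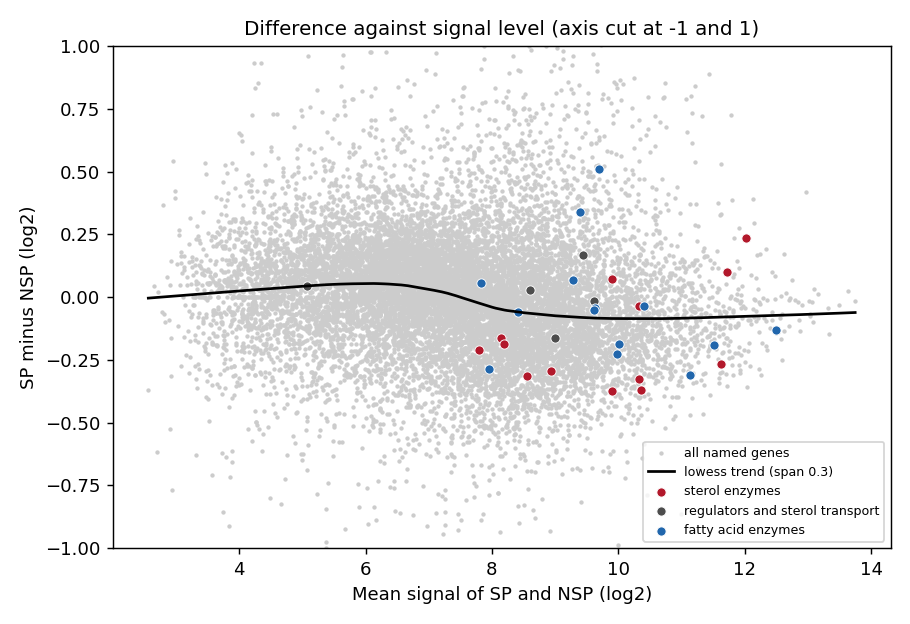
Difference SP minus NSP (log2, vertical axis, drawn from -1 to 1, which leaves out 71 genes) against mean signal of the populations (log2, horizontal axis) for all named genes (grey), with the smoothed trend (black line) and the members coloured by branch. The trend lies at 0.05 at a mean signal of 6 and at -0.09 at 10, so members of strong signal sit where the general run of genes is slightly lower in SP.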

How the data were processed

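Gene expression was measured on 2 exon arrays, 1 per population. The authors deposited log2 signals, made with RMA and Partek per the submitters' processing notes. No label states the log2 scale, which RMA implies and the values' range allows. Versions, filters, the probe set definition and a genome build were not given in the sources used here. RMA equalises the distributions of the arrays and compresses differences of dim probe sets.

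Of 22011 probe sets, 14432 carried 1 gene symbol in the platform annotation, 2408 several and 5171 none. Symbols were updated through Entrez identifiers in the RefSeq annotation of GRCh38.p14 (14404 matched), and probe sets of a gene were averaged. Every measured member is named. Of the other pathway genes, those named are the 8 of each list with the largest differences above the floor and direct partners of members that were measured. NR1H3, ABCG1, PPARD, PLIN2, CPT1A and HADHA were chosen after their values were seen, and the unmeasured NR1H2 and PPARA are named beside them. No test was run. Counting was tested on simulated data. Members and lists were chosen with earlier results of these data known. A threshold of 1.3-fold was an alternative chosen after the values were seen. The software was Python 3.11.15, numpy 2.4.6, pandas 2.3.3, statsmodels 0.14.6 and matplotlib 3.10.9.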

Additional observations from a re-analysis of the deposited data

How the results depend on the processing

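Alternatives were centring on the median, quantile normalisation, removal of the trend on signal level (span 0.3), the brightest probe set, probe sets with several symbols, other floors, the mean over members and leaving out the member with the largest difference. Each median kept its sign and moved by less than 0.1 under all of these, except that removing the trend turned 3 medians: fatty acid enzymes to 0.0158, other sterol genes to -0.0153 and other fatty acid genes to 0.0187. That alternative subtracts a negative trend from strong signals. It changed the sign of 6 of 32 members (ACSL4, ELOVL1, ELOVL6, IDI1, ME1 and SREBF1), none of them at 1.2-fold. It left 2 sterol enzymes, 0 fatty acid enzymes and 2 members in all lower by 1.2-fold, against 6, 2 and 8, gave 1 sterol enzyme higher by 1.2-fold, 1 fatty acid enzyme (ACSL1) and thus 1 member higher by 1.5-fold, 1 other sterol gene higher by 1.5-fold, and 2 other fatty acid genes lower by 1.2-fold, against 4. With the trend removed, 10.8% of all floor genes were lower by 1.2-fold and 14.4% higher. Centring on the median gave 5 sterol enzymes and 7 members lower by 1.2-fold, against 15.4% of all floor genes. Quantile normalisation gave 4 sterol enzymes, 1 fatty acid enzyme and 5 members lower by 1.2-fold, against 13.5% of all floor genes. It also gave 1 other sterol gene higher by 1.5-fold. Adding probe sets with several symbols gave 1 sterol enzyme, and 1 member in all, lower by 1.5-fold. That gene was HSD17B7, whose only probe set also lists DDR2 and other genes. The same addition gave 1 fatty acid enzyme and 1 member higher by 1.2-fold, against 10.8% of all floor genes. It gave 4 other sterol genes lower by 1.2-fold, against 16.4% of all floor genes. Lower floors, or none, gave 3 other sterol genes lower by 1.2-fold. With the lower floor 2 other fatty acid genes were higher by 1.2-fold, with no floor 3, and 0 with the floor applied to both arrays. At 1.3-fold, 0 sterol enzymes, 0 fatty acid enzymes, 0 members in all, 0 other sterol genes and 0 other fatty acid genes were lower in SP, against 6.9% of all genes. At that margin 1 fatty acid enzyme, and 1 member, was higher, against 6.74% of all genes. The count of sterol enzymes lower in SP thus rests on a margin close to their own differences. No paired analysis was possible because each population has 1 sample. The 2 arrays limit precision, and detection above background could not be computed from the deposited values.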

Other observations

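A further 10 probe sets listed a member together with other genes, so their signal cannot be assigned to one of them. Of these, 6 were lower and 4 higher in SP, with differences from -1.20 to 0.15. Only 1 of the 10 differed by 1.5-fold or more. It listed 5 symbols: HSD17B7, its pseudogene HSD17B7P2, DDR2, LINC01347 and LOC100288069. It had 6.90 in SP against 8.10 in NSP (2.31-fold lower), and which of these genes gave that signal is not known. The probe set shared by ACAT2 and SOD2-OT1 had 9.05 in SP against 8.90 in NSP, and that shared by SREBF2 and MIR33A had 9.97 in SP against 10.09 in NSP.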
